A study of Mus musculus with 6 samples.

Results

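The cyclins of G1 phase, the kinases they switch on, the inhibitor p27 and the retinoblastoma protein were followed through 3 states of pluripotency in mouse embryonic stem cells. The 10 genes were chosen by name, out of the 19532 gene rows of the deposited table. They are the D cyclins Ccnd1, Ccnd2 and Ccnd3, the E cyclins Ccne1 and Ccne2, the kinases Cdk2, Cdk4 and Cdk6, the inhibitor Cdkn1b and Rb1. Each was found on a row of its own, and 9 of the 10 held enough counts to be tested; Ccne2 did not and is given by its counts.

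RNA was counted in single cells with SORT-seq, a plate method that tags the 3′ end of each captured transcript with a molecular identifier (UMI). The established embryonic stem cell lines IB10 and R1 gave 1 library each per condition, so every comparison rests on 6 libraries. All cells grew on coated plastic in N2B27 medium without serum, and all received the cytokine LIF. Primed_4d cells had 4 days of FGF2 (12 ng/ml), Activin A (20 ng/ml) and IWP2 (2 µM), which inhibits WNT secretion, together with LIF. Rosette_LIM cells had LIF, 2 µM IWP2 and 0.1 µM of the MEK inhibitor PD325901, for 5 passages in IB10 and 6 passages in R1. LIF_2i cells had LIF, 3 µM CHIR99021, a GSK3 inhibitor that activates WNT signalling, and 0.1 µM PD325901. Cells were at passage 28 (IB10) and 24 (R1) in primed_4d and in LIF_2i, and at passage 33 (IB10) and 28 (R1) in rosette_LIM. Passage number and rosette_LIM culture therefore cannot be told apart. FGF2 with Activin A and the absence of PD325901 are likewise joined in primed_4d. In both rosette_LIM and primed_4d the absence of CHIR99021 is joined with the presence of IWP2.

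In G1 phase a D cyclin binds CDK4 or CDK6, and the complex phosphorylates the retinoblastoma protein, which otherwise holds back the E2F transcription factors. Freed E2F factors switch on the genes of DNA replication together with cyclin E, and cyclin E with CDK2 completes the phosphorylation and starts S phase. The protein p27, made from Cdkn1b, binds and blocks cyclin E with CDK2. Embryonic stem cells are known for a short G1 phase and for cyclin E that is present through much of the cycle. Much of this control acts on the proteins, which were not measured.

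The 188 wells of a library held 5298692 (IB10) and 4675388 (R1) UMIs in primed_4d, 5164933 and 5835894 in rosette_LIM, and 7806882 and 6868408 in LIF_2i. Shallow wells with under 6000 UMIs were most common in R1 primed_4d (84 wells); the remaining libraries had 4 to 38 of them. The deepest wells of R1 LIF_2i contributed 8.60% and 5.13% of its UMIs. The same 188 well numbers occur in each library, since columns are named by position on the plate. Summed pluripotency markers (all 6 genes found) lay between 4423 and 5545 CPM in all libraries, where CPM is the UMIs of a gene scaled to a common library size. The naive list of 5 genes summed to 299.5 (IB10) and 217.8 (R1) CPM in primed_4d, against 2135 to 2555 CPM elsewhere, and the primed list of 4 genes to 1120 and 1140 CPM in primed_4d, against 54.8 to 97.2 CPM elsewhere. Of other cell types, the 5 fibroblast genes summed to 3.32 to 11.4 CPM with Col3a1 at 0 in every library, and the 5 primitive endoderm genes to 3.60 to 7.14 CPM. The pair of neuroectoderm genes (Sox1 and Pax6) summed to 27.1 to 44.7 CPM in primed_4d, 20.5 to 21.9 in rosette_LIM and 6.72 to 7.44 in LIF_2i. The 4 mesendoderm genes ran the other way, with 4.17 to 7.70, 13.9 to 14.3 and 21.9 to 28.9 CPM in the same order. The 4 genes of 2-cell-like cells summed to 10.01 to 29.0 CPM. The part of any of these lists in the results below was not tested.

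RefSeq promoters (GRCm38.p6, 250 bases before to 50 after the start) were at hand for Ccnd3, Ccne1, Cdk2, Cdk4, Cdk6 and Cdkn1b. Those of Ccne1 and Cdk2 are printed because these genes moved together between wells of 1 library, and that of Cdk4 because it was the most abundant of the 10 and passed no test. They span chr7:38107441-38107740 (minus strand), chr10:128705002-128705301 (minus strand) and chr10:127063285-127063584 (plus strand). Capitals mark matches on either strand to TTTNNCGC (E2F), CTTTGAT (TCF/LEF), GGGCGG (Sp1) or CACGTG (E-box).
Ccne1: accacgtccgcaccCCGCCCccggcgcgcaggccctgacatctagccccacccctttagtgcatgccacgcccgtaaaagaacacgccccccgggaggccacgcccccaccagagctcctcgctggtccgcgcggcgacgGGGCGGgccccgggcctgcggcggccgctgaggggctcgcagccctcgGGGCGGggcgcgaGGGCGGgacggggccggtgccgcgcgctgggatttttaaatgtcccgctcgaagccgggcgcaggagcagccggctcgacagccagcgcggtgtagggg
Cdk2: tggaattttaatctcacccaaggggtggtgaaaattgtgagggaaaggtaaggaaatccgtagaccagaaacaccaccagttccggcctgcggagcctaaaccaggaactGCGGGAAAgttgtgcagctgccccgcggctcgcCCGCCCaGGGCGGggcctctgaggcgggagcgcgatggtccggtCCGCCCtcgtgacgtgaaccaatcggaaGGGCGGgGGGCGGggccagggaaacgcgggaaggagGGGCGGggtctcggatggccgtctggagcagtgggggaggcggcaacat
Cdk4: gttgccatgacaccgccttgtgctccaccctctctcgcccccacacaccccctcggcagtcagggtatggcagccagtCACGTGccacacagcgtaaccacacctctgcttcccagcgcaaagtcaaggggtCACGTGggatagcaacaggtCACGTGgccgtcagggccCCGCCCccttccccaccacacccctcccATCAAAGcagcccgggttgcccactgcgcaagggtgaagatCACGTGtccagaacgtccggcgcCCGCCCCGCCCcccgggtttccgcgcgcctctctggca
Ccne1 held 4 Sp1 matches and none to the E2F letters. Cdk2 held 1 E2F match, read on the opposite strand as GCGGGAAA, and 6 Sp1 matches. Cdk4 held 4 E-boxes, 3 Sp1 matches, of which a pair overlaps, and 1 TCF/LEF match. Cdk6 held 1 E2F match and 1 E-box, both Ccnd3 starts 2 Sp1 matches each, and Cdkn1b 1 Sp1 match. Over all 32851 promoters of this length, 5.17% held the E2F letters, 3.73% TCF/LEF, 35.7% Sp1 and 7.15% an E-box. A match is a run of letters and not a measured binding site.

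The D cyclins were first compared between primed_4d and the other conditions. Their levels changed in primed_4d: Ccnd3 and Ccnd1 were lower, and Ccnd2 was higher. Ccnd3 (chromosome 17, 47505051 to 47599691 on GRCm38, plus strand) showed the widest gap of the 10 genes. It was at 6.63 (IB10) and 5.99 (R1) CPM in primed_4d, 27.9 and 25.6 CPM in rosette_LIM, and 31.8 and 28.04 CPM in LIF_2i. Both primed_4d libraries lay far below the other 4, and the lines stayed close to each other in each condition. Ccnd3 fell by 2.24 ± 0.21 on the log2 scale in primed_4d against LIF_2i, a 4.73-fold difference (edgeR adjusted p = 9.94e-07, n = 2 libraries per group). Against rosette_LIM it fell by 2.08 ± 0.21 (edgeR adjusted p = 3.16e-06). Within the lines the primed_4d difference from LIF_2i was −2.26 in IB10 and −2.23 in R1. Between rosette_LIM and LIF_2i it did not pass the test (−0.16 ± 0.17, edgeR adjusted p = 0.661), with a 95% interval of −0.52 to 0.20.

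Ccnd1 (chromosome 7, 144929931 to 144939925, minus strand) was the main D cyclin throughout. Its level was 145 (IB10) and 202 (R1) CPM in primed_4d, 314.5 and 254 CPM in rosette_LIM, and 313 and 345 CPM in LIF_2i. The primed_4d libraries were again the lowest 2 of the 6, without overlap. Ccnd1 fell by 0.93 ± 0.15 against LIF_2i (edgeR adjusted p = 0.000176) and by 0.72 ± 0.15 against rosette_LIM (edgeR adjusted p = 0.00152). The value against rosette_LIM was −1.12 in IB10 and −0.33 in R1, and it was −0.40 without IB10 rosette_LIM (edgeR adjusted p = 0.019) and −0.45 without IB10 primed_4d (edgeR adjusted p = 0.0383). In rosette_LIM against LIF_2i the values were 0.01 in IB10 and −0.44 in R1, and the joint value of −0.21 ± 0.14 did not pass (edgeR adjusted p = 0.481). Leaving out the IB10 rosette_LIM library brought that value past the threshold (−0.54 ± 0.15, edgeR adjusted p = 0.00771), and leaving out the R1 library gave 0.08 ± 0.14 (edgeR adjusted p = 0.843). In primed_4d the fall of Ccnd1 and Ccnd3 held in every alternative fit, each of the 6 leave-one-out fits included.

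Ccnd2 (chromosome 6, 127125162 to 127152193, minus strand) was the scarcest D cyclin except in primed_4d. It was at 20.7 (IB10) and 7.49 (R1) CPM in primed_4d, 6.64 and 2.61 CPM in rosette_LIM, and 8.21 and 1.57 CPM in LIF_2i. The R1 primed_4d library lay under the IB10 LIF_2i library, so the conditions overlapped across lines although primed_4d was the highest in each line. With the line in the model, Ccnd2 rose by 1.60 ± 0.31 against LIF_2i, 3.04-fold (edgeR adjusted p = 0.000888), and by 1.60 ± 0.33 against rosette_LIM (edgeR adjusted p = 0.00148). Without the line as a replicate block the values were 1.51 ± 0.64 (edgeR adjusted p = 0.0935) and 1.63 ± 0.67 (edgeR adjusted p = 0.0884). The rise against LIF_2i was 2.25 ± 0.52 without IB10 LIF_2i (edgeR adjusted p = 0.00615). With wells weighted equally, fitted by limma on log2(CPM + 5), the rise was 0.97 ± 0.18 against LIF_2i (limma adjusted p = 0.00207). Against rosette_LIM it was 0.94 ± 0.18 (limma adjusted p = 0.00272). Limma on log2(CPM + 5) of the library sums gave 0.94 ± 0.15 and 0.93 ± 0.15, and the added 5 CPM makes differences of scarce genes smaller. The counts behind Ccnd2 are small: 109 (IB10) and 35 (R1) UMIs in primed_4d, 34 and 15 in rosette_LIM, and 64 and 11 in LIF_2i. Rosette_LIM and LIF_2i differed by 0.01 ± 0.35 (edgeR adjusted p = 0.995), an interval of −0.74 to 0.76.

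**Figure D1:**
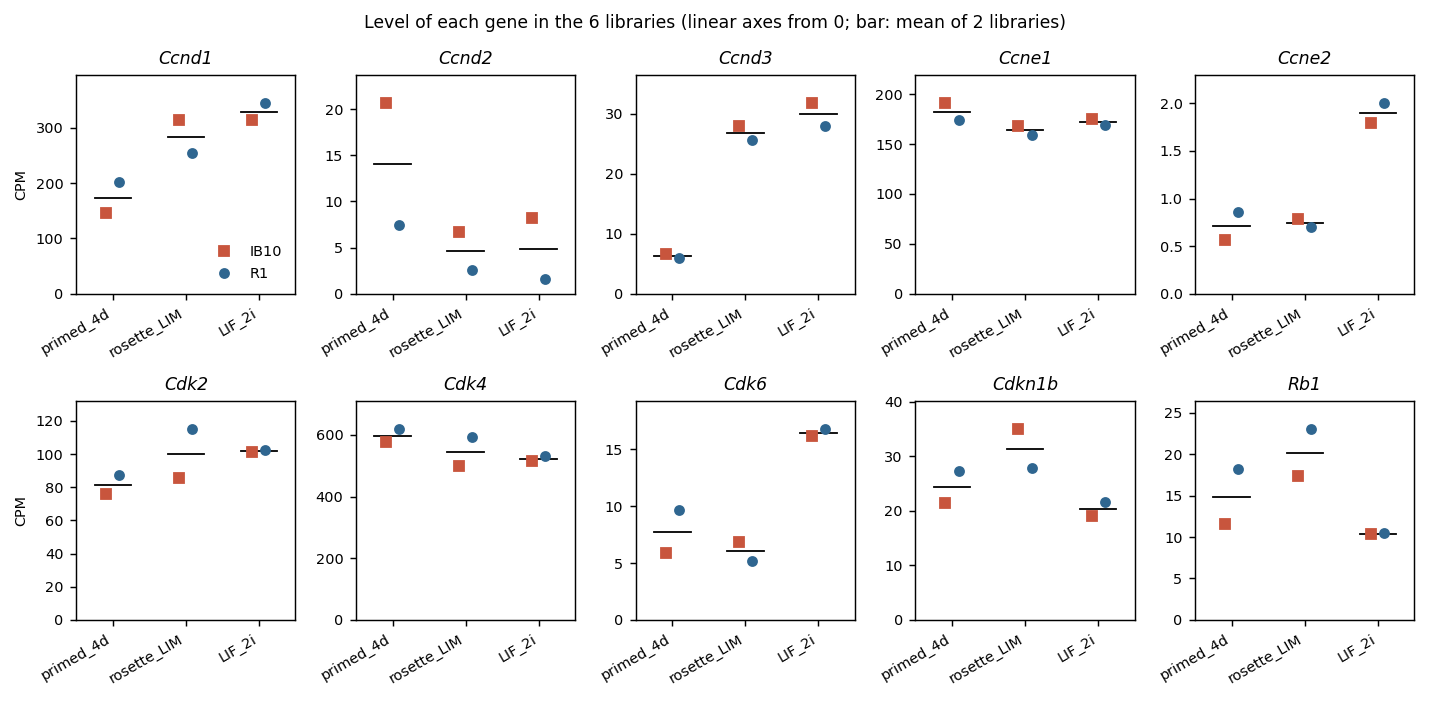
Level of each of the 10 genes in CPM (y axis, linear, from 0) in each library, with IB10 as squares, R1 as circles and the mean of 2 libraries as a bar. The primed_4d libraries are the lowest for Ccnd1 (145 and 202 CPM) and Ccnd3 (6.63 and 5.99 CPM), and the LIF_2i libraries the highest for Cdk6 (16.2 and 16.7 CPM).

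Because each UMI stands for 1 captured transcript end whatever its length, the genes of a family can be set side by side within a library, though capture may differ from gene to gene. Ccnd1 made up 84.2% (IB10) and 93.7% (R1) of D cyclin UMIs in primed_4d, 90.1% and 90.0% in rosette_LIM, and 88.7% and 92.1% in LIF_2i. Ccnd3 gave 3.85% (Wilson 95% interval 2.78 to 5.30) and 2.78% (1.93 to 3.99) in primed_4d. In rosette_LIM it gave 8% (6.83 to 9.35) and 9.07% (7.77 to 10.6), and in LIF_2i 9% (7.99 to 10.1) and 7.49% (6.54 to 8.56), in the same order of lines. The primed_4d intervals of Ccnd3 lay below those of all other libraries. Ccnd2 gave 12% (10 to 14.2) in IB10 and 3.48% (2.51 to 4.80) in R1 in primed_4d, 1.90% (1.36 to 2.65) and 0.926% (0.562 to 1.52) in rosette_LIM, and 2.32% (1.82 to 2.96) and 0.420% (0.235 to 0.751) in LIF_2i. In primed_4d Ccnd2 was above Ccnd3 in IB10, while in R1 their intervals overlapped; in the other 4 libraries Ccnd3 was above Ccnd2. These intervals cover counting error only. All D cyclins together came to 172 (IB10) and 215 (R1) CPM in primed_4d, 349 and 282 CPM in rosette_LIM, and 353 and 374 CPM in LIF_2i, so the summed level too was lowest in both primed_4d libraries.

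**Figure D2:**
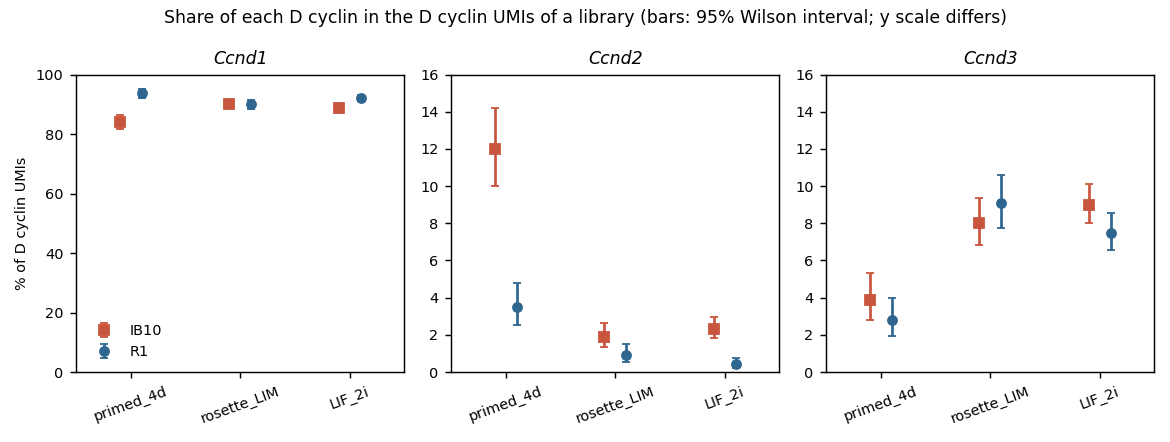
Share of Ccnd1, Ccnd2 and Ccnd3 in the D cyclin UMIs of each library in percent (y axes differ in scale), with bars for the Wilson 95% interval, IB10 as squares and R1 as circles. Ccnd2 reaches 12% in IB10 primed_4d and 3.48% in R1 primed_4d, where Ccnd3 is at 3.85% and 2.78%.

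The E cyclins were compared next, since they act after the D cyclins. Ccne1 (chromosome 7, 38097984 to 38107534, minus strand) held nearly 1 level throughout, with 191 (IB10) and 174 (R1) CPM in primed_4d, 168 and 159 CPM in rosette_LIM, and 175 and 169 CPM in LIF_2i. Relative to its level, no other of the 10 genes varied as little over the libraries, and both rosette_LIM libraries lay just under the other 4. None of the 3 comparisons passed: primed_4d against LIF_2i gave 0.08 ± 0.11 (95% interval −0.15 to 0.32, edgeR adjusted p = 0.568). Primed_4d against rosette_LIM gave 0.16 ± 0.11 (edgeR adjusted p = 0.289) and rosette_LIM against LIF_2i −0.07 ± 0.11 (edgeR adjusted p = 0.779). Ccne2 (chromosome 4, 11191351 to 11204779, plus strand), the second E cyclin, was close to the limit of detection. It had 3 (IB10) and 4 (R1) UMIs in primed_4d, 4 in each rosette_LIM library, and 14 in each LIF_2i library. With no filter on low counts Ccne2 was −1.42 ± 0.79 in primed_4d against LIF_2i (edgeR adjusted p = 0.19) and −1.36 ± 0.77 in rosette_LIM against LIF_2i (edgeR adjusted p = 0.417), so no difference was called at this depth. Ccne1 made up 98.8% to 99.7% of the E cyclin UMIs in every library.

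Of the kinases, Cdk6 was lower in both primed_4d and rosette_LIM than in LIF_2i, while its close relative Cdk4 and the cyclin E partner Cdk2 passed no comparison of conditions. Cdk6 (chromosome 5, 3341485 to 3531008, plus strand) was at 5.88 (IB10) and 9.63 (R1) CPM in primed_4d, 6.84 and 5.22 CPM in rosette_LIM, and 16.2 and 16.7 CPM in LIF_2i. The LIF_2i libraries stood above the other 4 with no overlap. The counts behind Cdk6 are small too: 31 (IB10) and 45 (R1) UMIs in primed_4d, 35 and 30 in rosette_LIM, and 126 and 117 in LIF_2i. Cdk6 fell by 1.45 ± 0.28 in rosette_LIM against LIF_2i, 2.73-fold (edgeR adjusted p = 0.00645), with −1.24 in IB10 and −1.68 in R1. It fell by 1.10 ± 0.27 in primed_4d against LIF_2i, 2.14-fold (edgeR adjusted p = 0.00528), with −1.46 in IB10 and −0.80 in R1. Primed_4d and rosette_LIM did not differ past the threshold (0.35 ± 0.31, edgeR adjusted p = 0.412), and the lines pointed opposite ways. The rosette_LIM call was lost without IB10 LIF_2i (−1.38, edgeR adjusted p = 0.148) or without R1 LIF_2i (−1.52, edgeR adjusted p = 0.151). The primed_4d call was lost without either of the same libraries (−1.04 and −1.17, edgeR adjusted p of 0.0734 and 0.0665), without IB10 primed_4d (−0.72, edgeR adjusted p = 0.111) and with DESeq2 (−1.09, DESeq2 adjusted p = 0.0536). With wells weighted equally it was −0.72 ± 0.15 (limma adjusted p = 0.00465), and with limma the rosette_LIM value was −0.96 ± 0.16 (limma adjusted p = 0.0146).

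Cdk4 (chromosome 10, 127063534 to 127067920, plus strand) was the most abundant of the 10 genes. It was at 577 (IB10) and 618 (R1) CPM in primed_4d, 497 and 592 CPM in rosette_LIM, and 514 and 531 CPM in LIF_2i. The rosette_LIM libraries spanned the LIF_2i range, and Cdk4 passed no test (primed_4d against LIF_2i 0.19 ± 0.10, 95% interval −0.02 to 0.41, edgeR adjusted p = 0.152). Cdk6 was thus a minor part of the D cyclin kinases: 1.01% (IB10) and 1.54% (R1) of Cdk4 and Cdk6 UMIs in primed_4d, 1.36% and 0.874% in rosette_LIM, and 3.05% and 3.06% in LIF_2i. The Wilson 95% intervals of LIF_2i began at 2.57% and 2.56%, above the highest upper bound of the other 4 libraries, 2.05%. Cdk2 (chromosome 10, 128697939 to 128705031, minus strand) was at 76.0 (IB10) and 87.3 (R1) CPM in primed_4d, 85.8 and 115 CPM in rosette_LIM, and 101 and 102 CPM in LIF_2i. The rosette_LIM libraries lay on either side of LIF_2i, and R1 primed_4d exceeded IB10 rosette_LIM. Primed_4d against LIF_2i gave −0.32 ± 0.13 (edgeR adjusted p = 0.066), which passed without IB10 rosette_LIM (−0.32, edgeR adjusted p = 0.0277), without R1 rosette_LIM (−0.33, edgeR adjusted p = 0.0244) and with no filter on low counts (−0.35, edgeR adjusted p = 0.0431). Primed_4d against rosette_LIM gave −0.29 ± 0.13 (edgeR adjusted p = 0.101) and passed without IB10 rosette_LIM (−0.43, edgeR adjusted p = 0.0298).

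The last pair of genes restrain the step into S phase. Rb1 (chromosome 14, 73183673 to 73325822, minus strand, with Lpar6 and Rcbtb2 overlapping it on the other strand), the pocket protein that the D cyclin kinases phosphorylate, was higher in rosette_LIM than in LIF_2i. It was at 11.6 (IB10) and 18.2 (R1) CPM in primed_4d, 17.4 and 23.0 CPM in rosette_LIM, and 10.4 in each line in LIF_2i. The rosette_LIM libraries were above both LIF_2i libraries, and R1 primed_4d lay between the rosette_LIM values. Rb1 rose by 0.94 ± 0.22 in rosette_LIM, 1.91-fold (edgeR adjusted p = 0.021), with 0.74 in IB10 and 1.14 in R1. This call was lost without IB10 LIF_2i (edgeR adjusted p = 0.0808), without R1 LIF_2i (0.459) and without R1 rosette_LIM (0.0518). It was also lost with DESeq2 (DESeq2 adjusted p = 0.182), with wells weighted equally (0.56 ± 0.15, limma adjusted p = 0.0956) and without the replicate block (0.96 ± 0.25, edgeR adjusted p = 0.0801). Primed_4d against LIF_2i gave 0.48 ± 0.23 (edgeR adjusted p = 0.11), with 0.15 in IB10 and 0.80 in R1.

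Cdkn1b (chromosome 6, 134920401 to 134925513, plus strand), which encodes p27, was at 21.4 (IB10) and 27.4 (R1) CPM in primed_4d, 35.0 and 27.8 CPM in rosette_LIM, and 19.1 and 21.6 CPM in LIF_2i. Both rosette_LIM libraries exceeded both LIF_2i libraries, by 0.87 in IB10 and 0.37 in R1 on the log2 scale. The joint difference of 0.63 ± 0.19 missed the threshold (edgeR adjusted p = 0.0715). It passed without R1 rosette_LIM (0.91, edgeR adjusted p = 0.00389), without either primed_4d library (0.62 in each, edgeR adjusted p of 0.0369 and 0.0372) and with no filter on low counts (0.61, edgeR adjusted p = 0.0238). Primed_4d against rosette_LIM gave −0.37 ± 0.19 (edgeR adjusted p = 0.156) and passed without R1 rosette_LIM (−0.67, edgeR adjusted p = 0.0241).

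Read across the set, 2 of the 9 tested genes passed in rosette_LIM against LIF_2i (1 higher, 1 lower), beside 5.54% of all 12098 genes tested (3.19% higher, 2.35% lower). In primed_4d 4 passed against LIF_2i (1 higher, 3 lower), beside 37.9% of all genes (18.3% higher, 19.6% lower). Against rosette_LIM 3 passed (1 higher, 2 lower), beside 36.1% of all genes (17.1% higher, 19% lower). The counts in primed_4d are near the background and say nothing particular about the set. The median log2 difference over the 9 genes was −0.03, 0.08 and −0.29 in these comparisons, beside medians over all genes of 0.00161, −0.00921 and −0.00261. These comparisons share libraries, so they are not independent of each other.

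**Figure D3:**
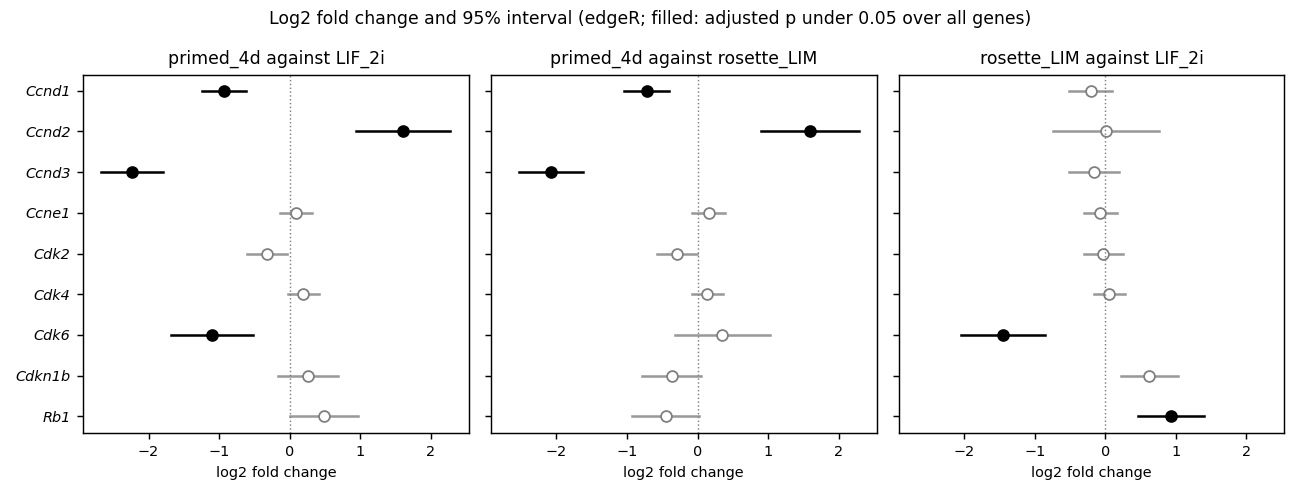
Log2 fold change (x axis) of the 9 tested genes in the 3 comparisons of conditions, with the 95% interval from edgeR; filled points passed an adjusted p of 0.05 over all genes. Ccnd3 lies at −2.24 in primed_4d against LIF_2i and −2.08 against rosette_LIM, and Cdk6 at −1.45 in rosette_LIM against LIF_2i.

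The lines differed in 1 of the 9 genes, Ccnd2, beside 0.752% of all genes (0.24% higher and 0.512% lower in IB10). IB10 was at the higher passage in each condition, so line and passage number cannot be told apart. Each line had 1 library per condition, so its 3 libraries are not repeats of 1 condition. Ccnd2 was higher in IB10 than in R1 in each condition, with 20.7 against 7.49 CPM in primed_4d, 6.64 against 2.61 CPM in rosette_LIM and 8.21 against 1.57 CPM in LIF_2i. The joint log2 difference was 1.68 ± 0.27, 3.20-fold (edgeR adjusted p = 0.0125, n = 3 libraries per line). By condition it was 1.47 in primed_4d, 1.35 in rosette_LIM and 2.38 in LIF_2i. The call was lost without IB10 LIF_2i (1.42, edgeR adjusted p = 0.157), without R1 LIF_2i (1.42, edgeR adjusted p = 0.207) and with wells weighted equally (0.82 ± 0.15, limma adjusted p = 0.102). The 563 tested genes of chromosome 6, which carries Ccnd2, had a median IB10 difference of 0.0898, beside 0.00149 over all genes. Cdkn1b, on the same chromosome, was at −0.05 ± 0.16 (edgeR adjusted p = 0.949). Whether the chromosome has a part in the Ccnd2 difference was not tested.

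Levels of the set were also compared between cells of 1 library, ranked by genes of the cell cycle that are not members. In each library the wells with 6000 or more UMIs were ranked by the share of UMIs in 18 S phase genes after thinning to 6000 UMIs, and the ranking was cut into 3 classes of equal size. The high wells were set against the low wells, with 34 to 61 wells in each, and the middle class was left out. The classes are ranges of a score and not cell cycle phases. The lowest score among high wells was 48.3 to 55 UMIs per 10000, and the highest among low wells 33.3 to 43.3. Ccne1 and Cdk2 were higher in the wells rich in S phase transcripts. Ccne1 was at 226 (IB10) and 231 (R1) CPM in the high wells of primed_4d, against 174 and 145 CPM in the low wells. It was at 247.5 and 226 CPM in the high wells of rosette_LIM, against 101 and 115 CPM in the low wells. In LIF_2i it was at 194 and 238 CPM in the high wells, against 140 and 115.5 CPM in the low wells. All 6 values of high wells lay above all 6 values of low wells, and Ccne1 rose by 0.79 ± 0.08, 1.73-fold (edgeR adjusted p = 1.55e-09). Cdk2 averaged 108 ± 16.5 CPM in the high and 87.4 ± 13.7 CPM in the low wells (SD, n = 6 libraries) and rose by 0.30 ± 0.07 (edgeR adjusted p = 0.0129), with the high wells above the low wells in 6 of 6 libraries. These 2 of 9 genes, both higher, stand beside 2.53% of the 10594 genes tested (1.22% higher, 1.31% lower).

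The other 7 tested genes did not pass between high and low S phase wells. Ccnd1 averaged 254 ± 81.9 CPM in the high and 281 ± 78.3 CPM in the low wells; the high wells were below the low wells in every library, yet by a log2 difference of only −0.15 ± 0.06 (edgeR adjusted p = 0.167). Ccnd3 was at 0.39 ± 0.15 (edgeR adjusted p = 0.18), and at 0.55 ± 0.16 (edgeR adjusted p = 0.0196) when wells were ranked before thinning. Cdk4 gave 0.07 ± 0.04, higher in 5 of 6 libraries (edgeR adjusted p = 0.468). Rb1 gave −0.38 ± 0.18 (edgeR adjusted p = 0.324), Cdkn1b −0.06 ± 0.14 (edgeR adjusted p = 0.90), and Ccnd2 and Cdk6 −0.14 each (edgeR adjusted p of 0.876 and 0.824).

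A second ranking used 18 G2/M genes, among them Ccnb1 and Cdk1. Here Ccne1 and Cdk2 were lower in the high wells. Ccne1 averaged 147 ± 20.2 CPM in the high and 193 ± 18.2 CPM in the low wells and fell by 0.40 ± 0.06, lower in the high wells of all 6 libraries (edgeR adjusted p = 5.58e-05). Cdk2 averaged 86.7 ± 11.7 and 106 ± 21.9 CPM and fell by 0.30 ± 0.07, again in all 6 libraries (edgeR adjusted p = 0.0143). No other member passed; the 2 lower ones stand beside 3.2% of 10734 genes (2.13% higher, 1.06% lower). Ccnd1 was higher in the high wells in 5 of 6 libraries (0.14 ± 0.06, edgeR adjusted p = 0.262), with IB10 primed_4d the exception, and passed without that library (0.21 ± 0.05, edgeR adjusted p = 0.0188). The high G2/M wells were deeper in every library, with medians of 34457 to 47446 UMIs against 25018 to 45378 UMIs, and the part of depth was not tested. Cdk2 lost its call in both rankings without R1 LIF_2i (edgeR adjusted p of 0.0607 for S phase and 0.11 for G2/M) and without R1 rosette_LIM (0.0723 and 0.12). Ccne1 kept its call in every alternative of both rankings.

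**Figure D4:**
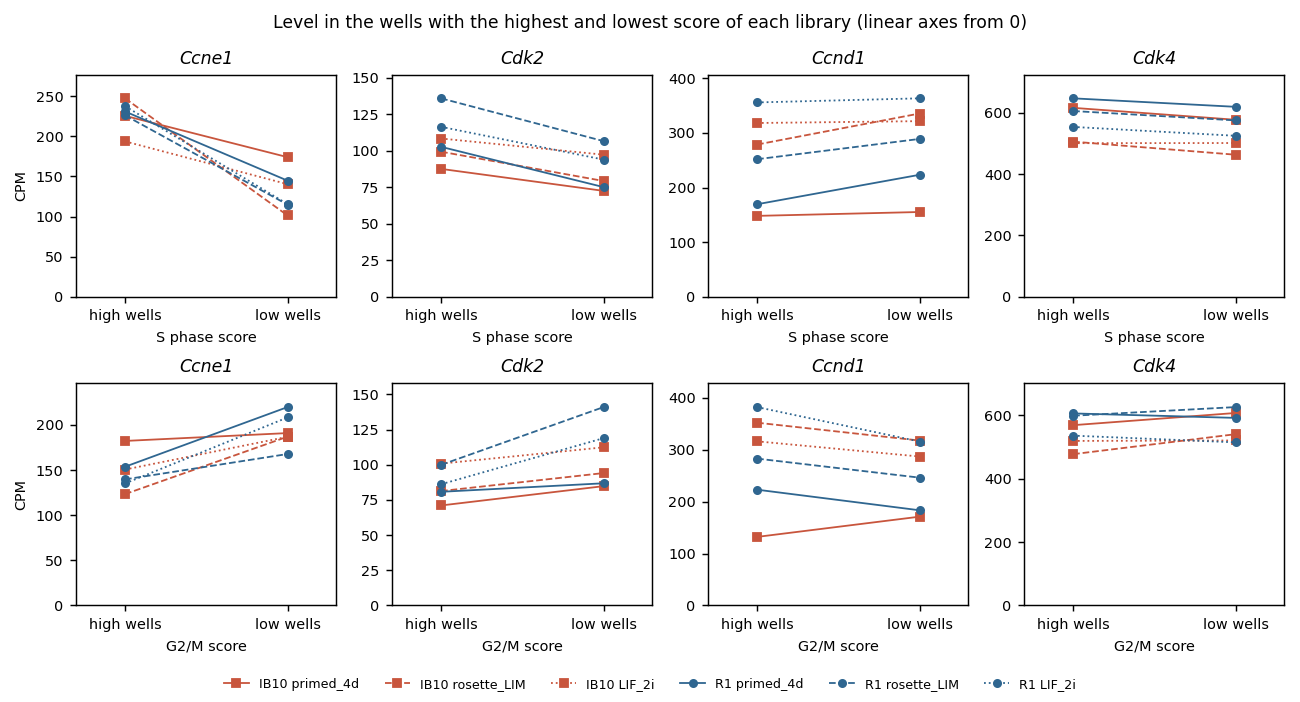
Level in CPM (y axes, linear, from 0) of Ccne1, Cdk2, Ccnd1 and Cdk4 in the wells with the highest and the lowest scores of each library, for the S phase ranking (top row) and the G2/M ranking (bottom row); each line joins the values of 1 library. Ccne1 is higher in the high S phase wells of all 6 libraries (mean 227 against 132 CPM) and lower in the high G2/M wells of all 6 libraries (147 against 193 CPM).

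The S phase list itself summed to 4226 (IB10) and 4062 (R1) CPM in primed_4d, 4635 and 4624 in rosette_LIM, and 4708 and 4657 in LIF_2i. The G2/M list summed to 3394 and 3374 CPM in primed_4d, 4597 and 4346 in rosette_LIM, and 3702 and 3580 in LIF_2i, in the same order of lines. Both lists were lowest in primed_4d, and G2/M genes were highest in rosette_LIM. Whether the share of cells in each phase has a part in the differences of the D cyclins, Cdk6 or Rb1 was not tested.

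Seen well by well, the D cyclin differences also appeared in the share of wells with a UMI. With few UMIs per well such a share largely restates the mean level. After each well was thinned to 6000 UMIs, which left 104 to 184 wells per library, Ccnd3 was seen in 4.14% (IB10) and 1.92% (R1) of wells in primed_4d, 16% and 14.0% in rosette_LIM, and 16.8% and 11.2% in LIF_2i. Without thinning these shares were 15.96% and 12.2%, 44.1% and 46.3%, and 62.8% and 46.8%. Ccnd1 was seen in 56.2% (IB10) and 59.6% (R1) of thinned wells in primed_4d, 81.3% and 75.4% in rosette_LIM, and 78.8% and 82.5% in LIF_2i. Unthinned, Ccnd1 was seen in 83.0% and 59.6%, 81.4% and 93.6%, and 98.9% and 90.4% of wells. Ccnd2 was seen in 10.1% and 4.81% of thinned wells in primed_4d, 2.00% and 2.23% in rosette_LIM, and 4.35% and 0.625% in LIF_2i, with 1 to 17 wells behind each share. Its unthinned shares were 22.9% and 9.04%, 12.2% and 5.85%, and 17.6% and 5.32%. Cdk4 was seen in 93.1% to 97.1% of thinned and 73.9% to 99.5% of all wells. Rb1 was seen in 7.69% (IB10) and 14.4% (R1) of thinned wells in primed_4d, 6% and 13.4% in rosette_LIM, and 4.35% and 6.88% in LIF_2i. In the same order Cdk6 was seen in 3.55% and 1.92%, 4% and 4.47%, and 7.61% and 6.88%. Cdkn1b was seen in 8.28% and 10.6%, 21.3% and 19.55%, and 15.8% and 17.5%. Its share was thus lowest in primed_4d after this thinning, although its CPM there exceeded that of LIF_2i in each line. Only 14 (IB10) and 11 (R1) wells are behind the primed_4d shares, and their Wilson intervals overlapped those of LIF_2i. Thinned to 10000 UMIs, the shares were 16.4% and 21.4% in primed_4d, 29.9% and 26.2% in rosette_LIM, and 19.6% and 19.1% in LIF_2i. In R1 the primed_4d share was then above that of LIF_2i. The sorted cells included no type known to lack these genes, so no background share from free RNA could be set beside them.

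Genes around the set were counted in 4 lists. Of the 6 other inhibitors of G1 kinases, 1 rose and 3 fell in primed_4d against LIF_2i, 1 rose and 2 fell against rosette_LIM, and 1 rose and 1 fell in rosette_LIM against LIF_2i. Over all genes 37.9%, 36.1% and 5.54% passed in the same order. Cdkn1c, which encodes p57, a relative of p27, was at 90.4 ± 19.3 CPM in primed_4d, 11.1 ± 6.90 CPM in rosette_LIM and 4.28 ± 0.43 CPM in LIF_2i (SD, n = 2). In primed_4d Cdkn1c rose by 4.40 ± 0.25 against LIF_2i (edgeR adjusted p = 1.08e-08) and by 3.07 ± 0.23 against rosette_LIM (edgeR adjusted p = 1.6e-07), and both calls held in all alternatives run. Its rise of 1.33 ± 0.31 in rosette_LIM against LIF_2i (edgeR adjusted p = 0.0185) was lost without IB10 LIF_2i (0.82, edgeR adjusted p = 0.464), without R1 LIF_2i (1.76, 0.074), without IB10 rosette_LIM (0.70, 0.273) and without the replicate block (1.36, 0.11). It was lost as well with limma (0.73, limma adjusted p = 0.0907) and with wells weighted equally (0.77, limma adjusted p = 0.0833). Cdkn1a, which encodes p21, was at 104 ± 16.6 CPM in primed_4d, 79.0 ± 29.9 CPM in rosette_LIM and 172 ± 70.6 CPM in LIF_2i. Its fall of 1.11 ± 0.21 in rosette_LIM against LIF_2i (edgeR adjusted p = 0.0055) was lost without R1 LIF_2i (−0.77, edgeR adjusted p = 0.355) and without the replicate block (−1.12, 0.0708), and with DESeq2 (−1.12, DESeq2 adjusted p = 0.259). Cdkn2c, an inhibitor of CDK4 and CDK6, fell by 2.08 ± 0.53 in primed_4d against LIF_2i, to 0.902 ± 0.065 CPM against 3.98 ± 1.45 CPM (edgeR adjusted p = 0.00649). That call was lost without R1 LIF_2i (−1.74, edgeR adjusted p = 0.123) and without R1 primed_4d (−1.75, 0.0886), and with DESeq2 (−2.08, DESeq2 adjusted p = 0.0627). With wells weighted equally the value was −0.52 (limma adjusted p = 0.0267), and with limma on library sums −0.60 (limma adjusted p = 0.00865), both on log2(CPM + 5). In primed_4d Cdkn2c was near the level of Ccne2 (0.569 CPM in IB10 and 0.856 CPM in R1), close to the limit of detection. The list's median log2 difference in primed_4d was −0.58 against LIF_2i and −0.35 against rosette_LIM, beside −0.00921 and −0.00261 over all genes. With 1 library left out, 1 to 5 inhibitors passed in primed_4d against LIF_2i, the fewest without R1 LIF_2i and without R1 primed_4d (1 each).

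Of 12 pocket proteins, E2F and DP factors, 4 rose and 2 fell in primed_4d against LIF_2i, and 3 rose and 2 fell against rosette_LIM, beside 37.9% and 36.1% of all genes called in those comparisons. With DESeq2 and with wells weighted equally 3 passed against LIF_2i in place of 6. None passed in rosette_LIM against LIF_2i, where 0 to 2 did with 1 library left out and 1 did with no filter on low counts. In that comparison 5.54% of all genes passed. The repressor E2f6 was at 60.4 ± 6.60 CPM in primed_4d, 23.6 ± 2.37 CPM in rosette_LIM and 23.6 ± 5.25 CPM in LIF_2i. E2f6 rose by 1.35 ± 0.18 in primed_4d against LIF_2i (edgeR adjusted p = 3.69e-05) and by 1.35 ± 0.19 against rosette_LIM (edgeR adjusted p = 5.28e-05), in all alternatives run. The activator E2f2 fell by 1.42 ± 0.32 in primed_4d, to 4.80 ± 2.86 CPM against 13.0 ± 1.29 CPM in LIF_2i (edgeR adjusted p = 0.00297), a call lost without R1 LIF_2i (−1.10, edgeR adjusted p = 0.0853) and without R1 primed_4d (−0.89, 0.0583). Without IB10 primed_4d the value was −2.24. On log2(CPM + 5) it was −0.89 with wells weighted equally and −0.90 with limma on library sums. The list's median in that comparison was 0.01. Its count ran from 2 to 7 with 1 library left out, lowest without R1 LIF_2i.

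Among 13 activators of the kinases and proteins that turn over cyclins or inhibitors, 4 rose and 2 fell in primed_4d against LIF_2i, 2 rose and 1 fell against rosette_LIM, and 1 rose and 1 fell in rosette_LIM against LIF_2i. Over all genes 37.9%, 36.1% and 5.54% passed in these comparisons, in the same order. The count of 2 in rosette_LIM against LIF_2i was 0 with limma, with wells weighted equally, without the replicate block and without either LIF_2i library. Cks1b, a small subunit that helps SKP2 mark p27 for destruction, was at 316 ± 17.5 CPM in primed_4d, 223 ± 25.4 CPM in rosette_LIM and 156 ± 2.00 CPM in LIF_2i. Cks1b rose by 1.02 ± 0.12 in primed_4d against LIF_2i (edgeR adjusted p = 7.39e-06) and by 0.51 ± 0.11 against rosette_LIM (edgeR adjusted p = 0.00295), in all alternatives run. Its rise of 0.51 ± 0.12 in rosette_LIM against LIF_2i (edgeR adjusted p = 0.0172) was lost without IB10 LIF_2i (0.49, edgeR adjusted p = 0.304), without R1 LIF_2i (0.52, 0.313), without IB10 rosette_LIM (0.36, 0.136) and without the replicate block (0.51, 0.054). It was lost as well with limma (0.50, limma adjusted p = 0.09) and with wells weighted equally (0.49, limma adjusted p = 0.129). Cdc25a, the phosphatase that activates CDK2, fell by 0.64 ± 0.13 in primed_4d against LIF_2i (edgeR adjusted p = 0.00135), a call lost without R1 LIF_2i (−0.57, edgeR adjusted p = 0.0698). The gene that fell in rosette_LIM against LIF_2i was also Cdc25a, a call lost in 7 of the alternatives, with DESeq2 (−0.53, DESeq2 adjusted p = 0.119) and limma (−0.50, limma adjusted p = 0.084) among them. The list's median in primed_4d against LIF_2i was −0.03, the comparison that the following count also covers. Its count ran from 1 to 6 with 1 library left out, lowest without R1 LIF_2i.

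The list of 19 E2F target and S phase genes holds the 18 genes used to rank wells and Ccna2. In primed_4d 2 rose and 7 fell against LIF_2i, and 1 rose and 5 fell against rosette_LIM, beside 37.9% and 36.1% of all genes. With 1 library left out 3 to 10 and 4 to 6 passed, and 5 did against LIF_2i with DESeq2, with limma and without the replicate block. None passed in rosette_LIM against LIF_2i (2 did without R1 rosette_LIM). In that comparison 5.54% of all genes passed. The median log2 difference of the list in primed_4d was −0.19 against LIF_2i and −0.13 against rosette_LIM, beside the medians over all genes given above. The replication licensing factor Cdc6 was at 29.6 ± 3.15 CPM in primed_4d, 57.8 ± 3.15 CPM in rosette_LIM and 56.9 ± 8.61 CPM in LIF_2i. Cdc6 fell by 0.94 ± 0.16 against LIF_2i (edgeR adjusted p = 0.000369) and by 0.96 ± 0.16 against rosette_LIM (edgeR adjusted p = 0.00037), in all alternatives run. Ung, the uracil DNA glycosylase, fell by 0.84 ± 0.12 against LIF_2i (edgeR adjusted p = 9.04e-05), likewise in all alternatives. No gene of the 4 lists differed between IB10 and R1 past the threshold, beside 0.752% of all genes.

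The genes most like each D cyclin over the 6 libraries were found among 6276 genes with a mean of at least 20 CPM, by Pearson's r of log2(CPM + 1). They were Smtnl2 and Bcl3 for Ccnd3 (r = 0.998 each), Ppil2 and Aspscr1 for Ccnd1 (0.992 each), and Bre and Trub1 for Ccnd2 (0.991 and 0.980). Bcl3, a cofactor of NF-κB, was at 10.8 (IB10) and 10.1 (R1) CPM in primed_4d, 40.2 in each rosette_LIM library, and 44.0 and 38.6 CPM in LIF_2i. Trub1, a pseudouridine synthase, shared the higher level in IB10 seen for Ccnd2, with 43.0 (IB10) and 22.2 (R1) CPM in primed_4d, 24.2 and 10.96 CPM in rosette_LIM, and 27.7 and 11.02 CPM in LIF_2i. Bre varied far less, between 20.9 and 26.2 CPM. Over 6 points that share their conditions and lines, such values carry no test and are given as a description.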

How the data were processed

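Single cells of the mouse lines IB10 and R1 were profiled in primed_4d, rosette_LIM and LIF_2i culture. The authors deposited 1 table, whose unit is the expected count of molecules of each gene in each well. BWA and mm10/GRCm38 are named in the submitters' processing notes; versions, annotation and strand use were not given in the sources used here. Each of the 1297 distinct values equals, to 2 decimals, the molecules expected from a whole number of 4096 possible UMIs, so the values are UMI counts corrected for collisions, with no scaling to a common depth. All 1128 columns were used. The 91 ERCC spike-in rows (1.75% of counts) were left out of library sizes and tests.

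Values were summed over the 188 wells of a library and rounded. edgeR 4.0.16 in R 4.3.3 (TMM normalization, filterByExpr at a minimum count of 10, condition and line in the model) ran a two-sided test on 12098 genes, with Benjamini-Hochberg adjustment over all of them and a threshold of 0.05. The design named this test for counts and limma for normalized values; the values proved to be counts. The line is a block because same-numbered libraries come from 1 line; across genes, the IB10 minus R1 differences of a pair of conditions correlated by 0.152 (LIF_2i and rosette_LIM), 0.205 (LIF_2i and primed_4d) and 0.0903 (rosette_LIM and primed_4d). Separate cultures within a line are not stated, and there is 1 library per line and condition. The spread behind the condition and line tests is thus how unevenly the lines moved between conditions. Technical and culture differences within that spread cannot be told apart. An exact permutation test of 2 against 2 libraries cannot go below 0.333 and was not run. For ranked wells, sums of the high and of the low wells, each the end class of 3 of equal size, were tested with the library as block, list genes left out. The statistics were tested on simulated data. No doublet caller was run, since cells were sorted into wells.

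Log2 fold changes are ± a standard error from edgeR's test, levels are mean or single-library CPM, and SDs are over libraries. DESeq2 1.42.0 and limma 3.58.1 served as alternatives, along with other filters, scalings, wells and libraries. Limma, which also fitted the equally weighted wells, used log2(CPM + 5), so its differences of scarce genes are smaller. Coordinates are GRCm38 positions of a GENCODE M21 annotation. In it, 8 of the 10 genes overlap another gene (not Ccne1 and Cdkn1b), so reads of a partner on the other strand could not be told apart, and Ccnd3 has a pseudogene copy. All 10 genes were named by rule, and of the 4 other lists at most the 3 widest changes per comparison. The genes and lists were chosen with earlier results of these data known.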

Additional observations from a re-analysis of the deposited data

Results flagged for a closer look

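In 5 of 27 comparisons of a gene between conditions the lines moved opposite ways. None of these differences was tested, as 1 library per line and condition leaves no spread to test them with. No share over all genes was at hand for this count, so it says nothing particular about the set. In rosette_LIM against LIF_2i, Ccnd1 was at 0.01 in IB10 and −0.44 in R1, a log2 difference between lines of 0.45. For Ccnd2 the values were −0.31 in IB10 and 0.73 in R1, a difference of −1.04. Cdk2 was at −0.24 in IB10 and 0.17 in R1 (−0.40), and Cdk4 at −0.05 and 0.16 (−0.20). In primed_4d against rosette_LIM, Cdk6 was at −0.22 in IB10 and 0.88 in R1, a difference of −1.10.

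Wells with high and low scores were compared between conditions too. In 6 of 54 comparisons both libraries of 1 condition moved one way and both of another condition the other way, again untested. This count likewise has no share over all genes beside it and says nothing particular about the set. Between high and low S phase wells Ccnd2 averaged −0.62 in rosette_LIM and −0.56 in primed_4d against 1.04 in LIF_2i. These are differences of −1.66 and −1.60. They rest on few UMIs: all wells of R1 LIF_2i held 11, and its high and low wells gave 1.77 and 0.938 CPM. Cdkn1b averaged 0.45 in primed_4d, against −0.26 in rosette_LIM and −0.27 in LIF_2i, differences of 0.71 each (0.709 and 0.714). Between high and low G2/M wells Ccnd2 averaged −0.57 in primed_4d and 0.54 in rosette_LIM, a difference of −1.10. Cdk6 averaged −0.34 in primed_4d and 1.13 in rosette_LIM, a difference of −1.47. R1 primed_4d moved little in this ranking, with 8.75 against 8.88 CPM for Ccnd2 and 10.8 against 11.6 CPM for Cdk6.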

How the results depend on the processing

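The 14 gene results past the threshold kept their direction in all 161 alternative values and their call in 140; the 21 lost calls are those of Rb1, Cdk6, Ccnd2 and Cdk2 given above, and the cause was not tested. The 4 other lists went through the same alternatives, an addition chosen after seeing the data. Of 442 alternative values of the 40 results short of the threshold, 403 stayed short with the same sign, 12 passed and 27 turned sign. In rosette_LIM against LIF_2i, 1 gene of the set was called, in place of 2, with DESeq2, with wells weighted equally and without the replicate block, and 0 to 3 with 1 library left out. In primed_4d 3 to 5 were called against LIF_2i and 3 to 4 against rosette_LIM with 1 library left out. For the lines the count of 1 fell to 0 with wells weighted equally and was 0 to 1 with 1 library left out; the S phase and G2/M counts of 2 were 1 to 2 and 1 to 3. Without the replicate block, 281 in place of 670 genes passed in rosette_LIM against LIF_2i.

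Over all genes, rosette_LIM against LIF_2i gave 279 calls with DESeq2, 424 with limma, 281 with wells weighted equally, 1049 with no filter and 63 to 958 with 1 library left out. IB10 against R1 gave 48, 12, 7, 328 and 0 to 379 in the same order, beside 91; 50% of limma's calls were higher in IB10, against 31.9% of edgeR's. DESeq2 called 2775 and 2702 genes in primed_4d against LIF_2i and rosette_LIM, beside 4581 and 4372, and leaving out a LIF_2i library gave 2317 or 2536 for the first. Ranking wells before thinning gave 811 S phase calls beside 268.

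Values that turned sign all belong to results short of the threshold. In rosette_LIM against LIF_2i, Ccnd2 was at −0.01 with no TMM factors (−0.0139) and with wells of 6000 or more UMIs (−0.0124), −0.00635 with no filter and −0.12 without the replicate block. With 1 library left out, Ccnd2 ranged from −0.28 to 0.68, Ccnd1 from −0.54 to 0.082, Cdk2 from −0.20 to 0.11 and Cdk4 from −0.0356 to 0.13. Ccne1 in primed_4d against LIF_2i was −0.0335 with wells weighted equally, and Cdk6 in primed_4d against rosette_LIM ranged from −0.0786 to 0.73 with 1 library left out. For IB10 against R1, Cdk6 was 0.0942 with wells weighted equally; with 1 library left out it ranged from −0.29 to 0.10, Ccnd1 from −0.30 to 0.0851 and Cdkn1b from −0.26 to 0.0844. Between high and low S phase wells Ccnd2 was 0.13 with 2 classes in place of 3 and ranged from −0.58 to 0.18 with 1 library left out, and Cdkn1b ranged from −0.14 to 0.00925. Between 2 classes of the G2/M ranking Ccnd3 was 0.002 and Cdk4 0.00185. With wells thinned to 10000 UMIs, more wells held a UMI of most genes; for Ccnd3 the mean share was 7.85% in primed_4d, 22.1% in rosette_LIM and 23.1% in LIF_2i. Depth limits Ccne2 (3 to 14 UMIs) and Ccnd2 (11 to 109 UMIs) most. Few UMIs are also behind Cdk6 (30 to 126) and Ccnd3 in primed_4d (35 in IB10 and 28 in R1).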

Other observations

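The ratio of variance to mean between wells of 1 library, after thinning to 6000 UMIs, is 1 for random sampling alone. Among the genes with the most UMIs per well it was 1.11 to 1.85 for Ccnd1, 1.11 to 1.52 for Ccne1 and 0.913 to 1.35 for Cdk4. For Cdk2, with fewer UMIs per well, it was 0.934 to 1.24. The highest Ccnd1 value came from R1 primed_4d, against 1.11 in IB10 primed_4d. The 10 wells with the most Ccnd2 UMIs held 61.5% (IB10) and 80.0% (R1) of its UMIs in primed_4d, 61.8% and 93.3% in rosette_LIM, and 62.5% and 100% in LIF_2i; with so few UMIs such shares are high for any gene. The same shares for Ccnd1 ran from 13.2% to 27.5%.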
